A study of Rattus norvegicus with 4 samples.

Results

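Smooth muscle cells of the aorta of Sprague-Dawley rats that had received no added factor were compared between the 2 vehicle cultures of a 4-array expression study. The comparison sets the vehicle of platelet-derived growth factor DD (PDGF-DD) against the vehicle of interleukin-1b (IL-1b). It takes in 2 of the 4 arrays and all 31099 probe sets on each. The cultures were chosen because neither side received a factor, and no measured value entered that choice. The study itself was made to describe what IL-1b and PDGF-DD do to gene expression in these cells.

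All 4 cultures were grown to confluence in serum for 3 days, kept without serum for 3 days, and then exposed for 24 h. The IL-1b vehicle held bovine serum albumin (BSA) at 0.1% and acetic acid at 10 mM. The PDGF-DD vehicle held BSA at 0.01% and no acetic acid is named for it. The remaining cultures received IL-1b at 2.5 ng/mL or PDGF-DD at 30 ng/mL, and their arrays are used here only to set values side by side. Total RNA was extracted with Trizol, turned into biotin-labelled cRNA and hybridised to 1 Affymetrix array per culture. The labels give 1 sample per group, and say nothing of animals, passage or whether the vehicle cultures were handled on the same day. There are therefore no replicates, no standard deviation and no p-value, and a difference of any size may lie within the spread of untreated cultures. The composition of the vehicle, the culture and the array batch cannot be told apart.

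A gene is called different here when its 2 intensities are at least 2-fold apart, a fixed size and not a test. Intensities are linear MAS5 values brought to a common trimmed mean. The floor is the intensity of 28.1, the 40th percentile of all probe sets over the 4 arrays, and values under it were set to it before a ratio was taken. A gene counts as measured when it was above the floor in at least 1 vehicle culture. Where 1 culture was at the floor the fold is a lower bound, written as "at least". Log2 ratios are PDGF-DD vehicle over IL-1b vehicle throughout, so positive values mean more signal with the PDGF-DD vehicle. Where a pair of intensities is given, the IL-1b vehicle comes first. Medians of gene lists take in genes at such a bound.

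Of 14218 genes with a probe set of 1 symbol, 10389 were measured and 9512 were above the floor in both vehicle cultures. At least 2-fold differences were found for 1087 genes, or 10.5% of those measured. Of these, 602 (5.79%) were higher with the PDGF-DD vehicle and 485 (4.67%) were lower. The IL-1b vehicle was at the floor for 110 of the higher genes, and the PDGF-DD vehicle for 90 of the lower genes. Differences of 4-fold or more numbered 167 higher and 88 lower, those of 8-fold or more 42 and 20, and those of 16-fold or more 6 and 7. The median log2 ratio over the measured genes was -0.05, with 5th and 95th percentiles of -0.97 and 1.09. The share of genes called fell with the level of the gene. With the genes split into 4 equal bins by intensity, it was 17.2% in the lowest bin, then 11.9% and 7.05%, and 5.74% in the highest. Around the 2-fold line the genes were dense. The closest genes on either side had log2 ratios of 0.999967 and 1.00137 for higher genes, and of -0.999817 and -1.0003 for lower genes.

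**Figure D1:**
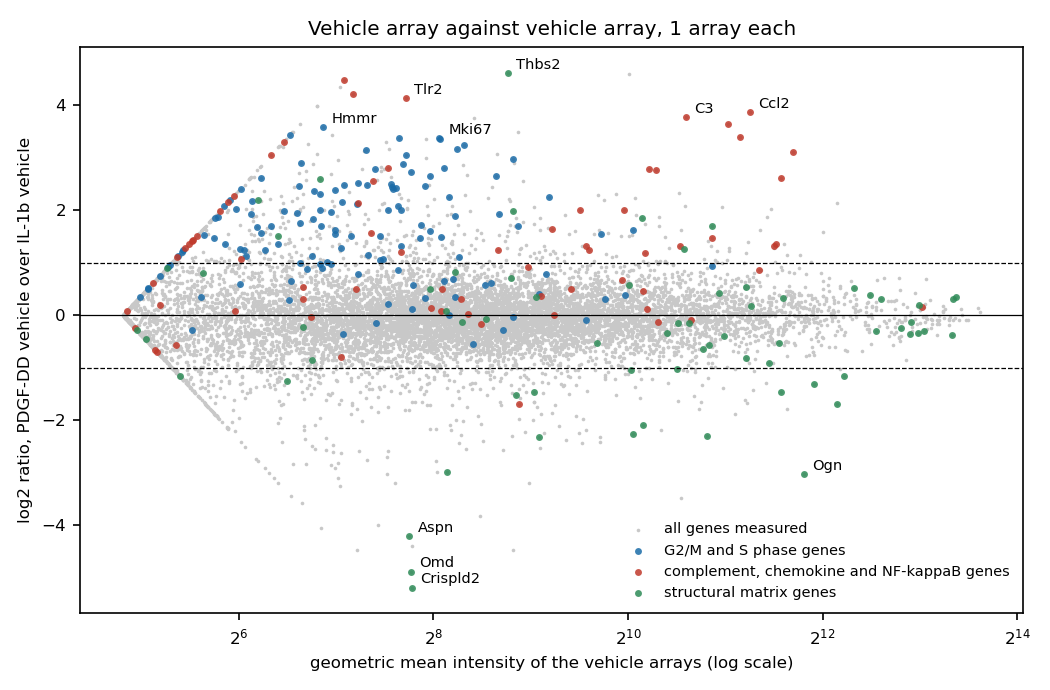
Log2 ratio of PDGF-DD vehicle over IL-1b vehicle (vertical axis) against the geometric mean intensity of both vehicle cultures (horizontal axis, log scale), 1 point per measured gene. Dashed lines mark 2-fold, coloured points are members of 3 families of gene lists, and the slanted edges at left are genes with 1 culture at the floor. Blue cell division genes lie mostly above the upper dashed line, red inflammatory genes extend above it at all levels, and green matrix genes lie on both sides.

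The arrays were alike in the share of probe sets above the floor, at 60.8% with the IL-1b vehicle and 59.4% with the PDGF-DD vehicle. The 14 reference genes measured had a median log2 ratio of 0.02 and a range of -0.43 to 0.71, and 0 of them were called. The ratio of 3' to 5' signal, a sign of RNA quality, was 1.58 against 1.26 for beta-actin and 1.22 against 1.11 for Gapdh, higher in the IL-1b vehicle each time. Among the spiked controls, which hold no RNA of the cells, BioB, BioD and Cre had log2 ratios of 0.09, 0.18 and 0.06. BioC stood apart at -1.31, with mean intensities of 627 and 253. The part of RNA quality and of BioC in the differences between genes was not tested. A check on the label of the cells showed high signal for the defining smooth muscle genes Acta2, Tagln and Cnn1 in both cultures. The defining gene Myh11 (smooth muscle myosin) was weaker, at 764 with the IL-1b vehicle and 290 with the PDGF-DD vehicle. The other intensities were 9980.0 and 5504 for Acta2 (smooth muscle alpha-actin), 7611 and 7131 for Tagln (transgelin), and 5228 and 5134 for Cnn1 (calponin), with the IL-1b vehicle first.

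Smooth muscle cells in the artery wall are contractile and divide little. In culture they can leave this state, lower the contractile genes, divide, secrete matrix and release inflammatory mediators. Serum withdrawal is the usual way to hold them out of the cell cycle. PDGF drives their growth and loss of contractile genes, and IL-1 acts through NF-kappaB to switch on chemokines, cytokines and acute phase genes.

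Cell division genes formed the most uniform block of the comparison. Of 59 measured G2/M and mitotic genes, 52 were at least 2-fold higher with the PDGF-DD vehicle and 0 lower, against a background of 5.79% higher and 4.67% lower over all genes. The list median was 2.24, and 58 of its 59 members lay above 0. Of 67 measured S phase and DNA replication genes, 35 were higher and 0 lower, with a median of 1.06. Over both cell cycle lists, 87 of 126 measured genes were at least 2-fold higher, or 69.0%. The IL-1b vehicle was at the floor for 6 G2/M and 7 S phase genes, which could then only be higher. Of these, 4 and 3 were called. Among genes above the floor in both cultures, 48 of 53 G2/M genes were higher and 0 lower, and 32 of 60 S phase genes were higher and 0 lower. In RNA from whole cultures, fewer cells of a kind and less RNA per cell cannot be told apart.

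The promoters of these genes carry short elements by which they are known to be controlled. The CHR element (TTTGAA) and CCAAT boxes bind the DREAM and MuvB complexes and NF-Y and mark G2/M genes, and E2F sites mark S phase genes. The promoters shown were drawn only from genes that hold the elements of their list, so their matches were fixed by that choice. A pair of G2/M promoters and a pair of S phase promoters are shown because both lists were high together. They are the 250 bases before the annotated start, 5′ to 3′ on the strand of the gene, from RefSeq on the GRCr8 build. The positions are chr1:199952594-199952843 (minus strand) for Mki67 and chr10:84473094-84473343 (minus strand) for Top2a. They are chr13:42404353-42404602 (minus strand) for Mcm6 and chr9:120776084-120776333 (minus strand) for Tyms. Capitals mark CHR and CCAAT matches in Mki67 and Top2a, and E2F matches (TTTNGCGC) in Mcm6 and Tyms, on either strand.
Mki67: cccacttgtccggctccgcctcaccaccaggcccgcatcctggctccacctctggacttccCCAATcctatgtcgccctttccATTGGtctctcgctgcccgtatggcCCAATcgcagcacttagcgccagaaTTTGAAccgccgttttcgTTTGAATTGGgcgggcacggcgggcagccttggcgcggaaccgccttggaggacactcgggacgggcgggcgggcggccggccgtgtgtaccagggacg
Top2a: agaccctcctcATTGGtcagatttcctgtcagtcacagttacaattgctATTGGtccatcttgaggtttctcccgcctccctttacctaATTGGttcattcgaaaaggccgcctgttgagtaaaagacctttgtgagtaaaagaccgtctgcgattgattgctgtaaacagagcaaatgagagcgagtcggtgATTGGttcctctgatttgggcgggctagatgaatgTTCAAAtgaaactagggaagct
Mcm6: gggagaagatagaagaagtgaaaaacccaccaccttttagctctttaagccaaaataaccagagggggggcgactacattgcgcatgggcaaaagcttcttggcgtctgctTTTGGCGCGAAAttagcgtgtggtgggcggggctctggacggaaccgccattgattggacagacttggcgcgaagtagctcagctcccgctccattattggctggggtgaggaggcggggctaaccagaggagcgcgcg
Tyms: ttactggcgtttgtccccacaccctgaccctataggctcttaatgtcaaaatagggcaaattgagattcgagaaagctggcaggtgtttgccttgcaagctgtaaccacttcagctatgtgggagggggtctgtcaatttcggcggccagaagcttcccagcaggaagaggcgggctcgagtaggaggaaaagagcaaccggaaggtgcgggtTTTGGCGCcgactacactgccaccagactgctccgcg

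In Mki67 the CHR matches began 117 and 99 bases before the start, and the latter shares a base with a CCAAT match on the other strand. Top2a had 1 CHR match, 22 bases before the start, and CCAAT matches at 239, 201, 161 and 57 bases before it. Mcm6 had overlapping E2F matches on both strands at 139 and 135 bases, and Tyms had 1 at 37 bases. Across the list, 33 of 51 G2/M genes with a promoter sequence held CHR, or 64.7%, against 11.2% of the 8715 measured genes with one and 18.1% of all 27457 promoters. CCAAT boxes stood in 70.6% of the G2/M promoters and 59.6% of the S phase promoters, against 38.5% of the measured genes and 37.7% of all promoters. Both elements stood together in 26 of 51 G2/M promoters (51.0%) and in 4.73% of the measured genes. An E2F match was found in 18 of 57 S phase promoters (31.6%), against 2.38% of the measured genes and 1.37% of all promoters. All windows counted were 300 bases long, 250 before and 50 after the start. Within the lists, holding the element moved the ratios little. G2/M genes had a median log2 ratio of 2.25 with CHR and 2.17 without, and S phase genes 1.12 with an E2F match and 0.97 without. A match to these letters describes a sequence and does not show that a factor binds there.

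**Figure D2:**
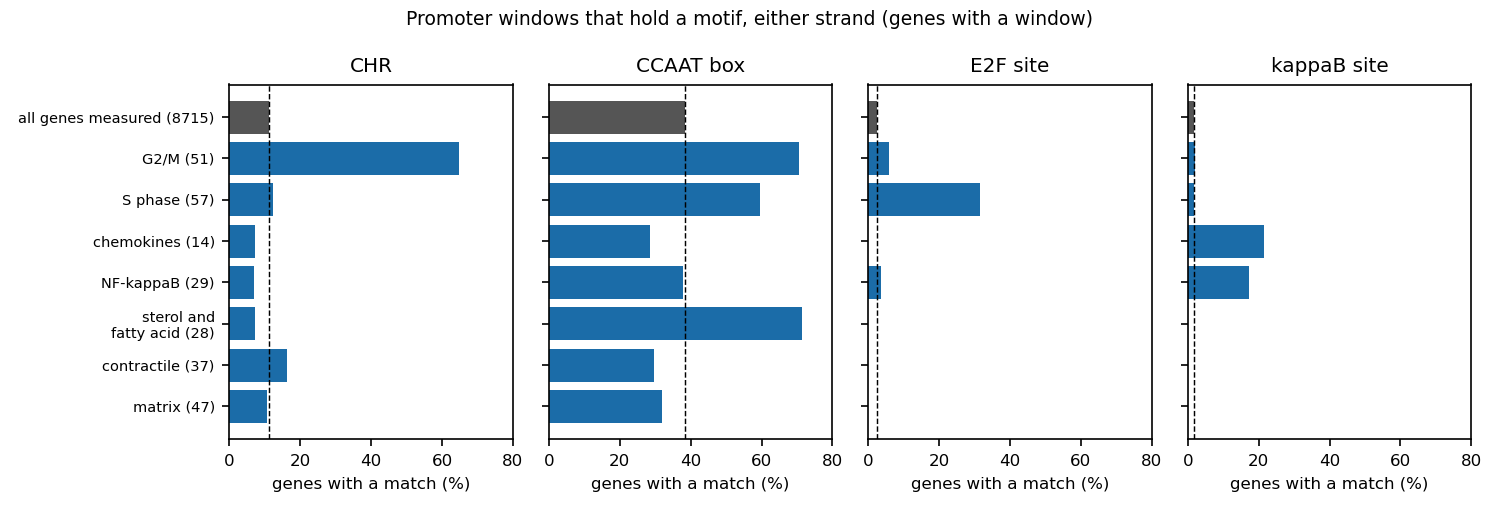
Percent of promoter windows (300 bases) that hold each element on either strand, with 1 panel per element and 1 bar per gene list. Numbers in brackets are genes with a window, and the dashed line is the share over all measured genes. CHR reaches 64.7% in the G2/M list, E2F sites 31.6% in the S phase list, and kappaB sites 21.4% in the chemokine list.

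Among mitotic genes, Mki67, which coats mitotic chromosomes and is the usual mark of cycling cells, had an intensity of 83.6 with the IL-1b vehicle and 858 with the PDGF-DD vehicle. It was 64.8 with IL-1b and 1799 with PDGF-DD. The IL-1b vehicle and IL-1b cultures were thus low together, and the PDGF-DD vehicle culture lay between them and the PDGF-DD culture. Cyclin B2, Ccnb2, which activates Cdk1 at mitotic entry, was 101 and 906 in the vehicle cultures, a log2 ratio of 3.17. Cdk1 itself was 269 and 1270.4, 4.72-fold apart. Top2a, the topoisomerase that untangles sister chromatids, was 104 and 976, 9.37-fold apart, and its other probe set gave a log2 ratio of 3.45 against 3.23. Each of these genes was lower in both cultures of the IL-1b pair than in both cultures of the PDGF-DD pair.

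Other steps of mitosis moved alike. The S and G2 cyclin Ccna2 was 8.27-fold higher with the PDGF-DD vehicle. Spindle assembly checkpoint kinases Bub1 and Ttk had log2 ratios of 2.44 and 2.89. The kinetochore genes Nuf2 and Spc24 had 2.25 and 2.08. Each of these 4 genes was more than 4-fold higher. Polo-like kinase Plk1 was 62.7 and 358, and the chromosomal passenger kinase Aurkb 71.3 and 308, 5.70-fold and 4.33-fold higher. Genes of cytokinesis, which pinch the daughter cells apart, were among the highest, with log2 ratios of 3.36 for Ect2, 3.37 for Kif20a, 2.79 for Racgap1 and 2.65 for Prc1. Hmmr, which anchors spindle microtubules, had the highest ratio of the list with 33.9 and 403, 11.9-fold apart. Ube2c and Cdc20, which serve the anaphase-promoting complex, were 6.27-fold and 3.69-fold higher. Foxm1, the transcription factor that drives G2/M genes, was 40.6 and 131, 3.22-fold higher. The lowest value belonged to Kif23, a cytokinesis motor, at -0.09.

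S phase genes were higher by less. The helicase subunits Mcm5 and Mcm6 were 2.92-fold and 3.02-fold higher, with Mcm6 at 143 and 433, and Mcm2 was under the 2-fold line at 1.60-fold. The replication sliding clamp Pcna was 1346 and 2585, 1.92-fold apart. Nucleotide supply was represented by Tyms (thymidylate synthase) at 2.96-fold, Rrm1 (ribonucleotide reductase) at 3.25-fold and Tk1 (thymidine kinase) at 6.89-fold. For Tk1, the highest of the list, the log2 ratio was 2.79, and 0.51 to 1.40 by the other probe sets. The licensing factor Cdt1 and the helicase partner Cdc45 had log2 ratios of 1.83 and 1.75, the histone chaperone Asf1b 2.61 and Uhrf1, which carries DNA methylation through replication, 2.47. E2f1, which drives the list, was not called, with 151 and 119. In a further list of 23 measured histone, chromatin and nuclear lamina genes 3 were higher and 0 lower. The 3 were the lamins Lmnb1 (4.67-fold) and Lmnb2 (2.63-fold) and the histone methyltransferase Ezh2 (2.19-fold). No histone gene was called, and H2ax and H2az1 had log2 ratios of 0.89 and 0.65.

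**Figure D3:**
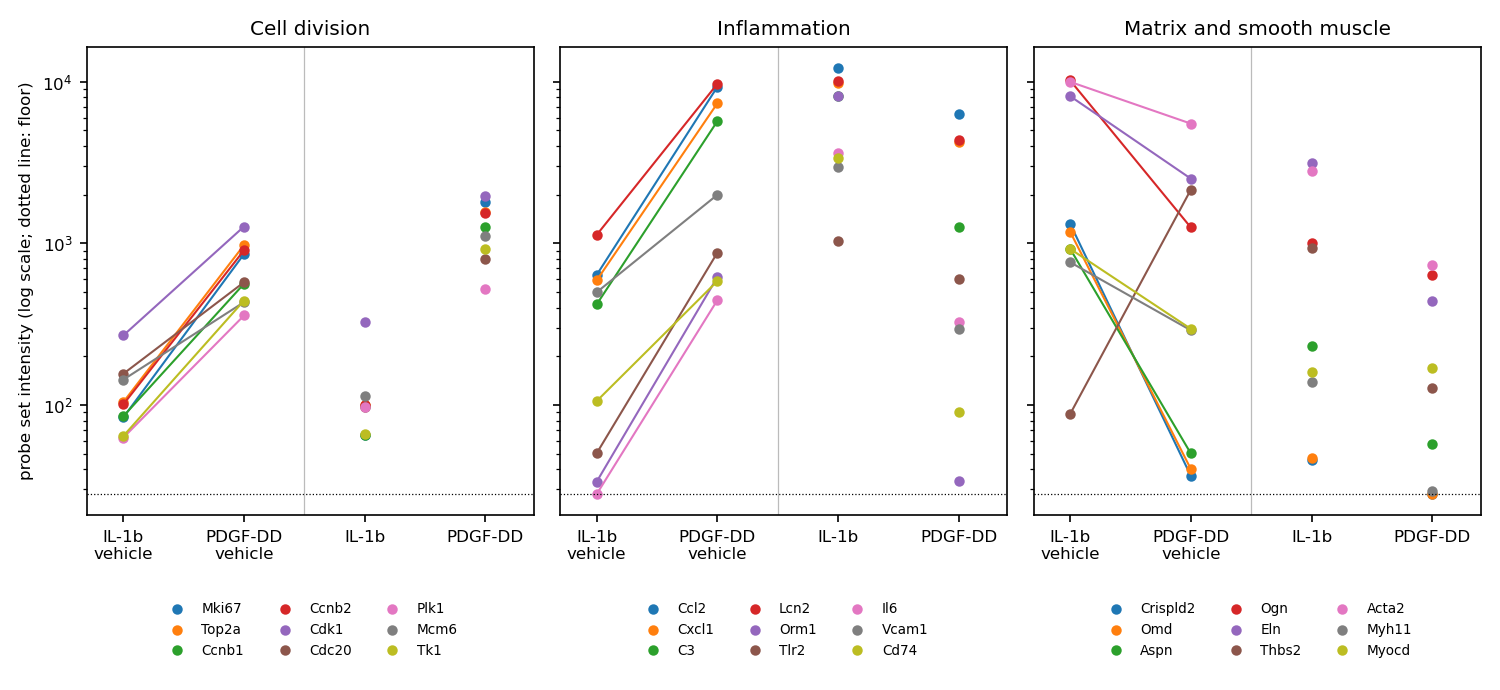
Probe set intensity (log scale) of named genes in the 4 cultures, 1 array each, with the vehicle cultures joined by lines. The dotted line is the floor, and values under it are drawn on it. The cell division genes drawn are higher in the PDGF-DD vehicle and PDGF-DD cultures than in the other cultures, inflammatory genes in the PDGF-DD vehicle lie near those of IL-1b for several genes, and most matrix and smooth muscle genes shown are highest with the IL-1b vehicle.

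Genes that act upstream of S phase were listed apart. Of 22 measured G1 cyclins, CDKs and CDK inhibitors, 2 were higher and 1 lower, with a median of -0.23, against 5.79% higher and 4.67% lower over all genes. Ccnd1, cyclin D1, the growth-factor-dependent cyclin of G1, was 201 with the IL-1b vehicle and 1173 with the PDGF-DD vehicle, 5.83-fold higher. In the treated cultures it was 2117 with IL-1b and 4102 with PDGF-DD, so the IL-1b vehicle culture alone was low. By its other probe sets the log2 ratio was 1.74 to 1.81. The CDK inhibitors Cdkn1a (p21) and Cdkn1b (p27) were not called, at -0.47 and -0.32, nor was Myc at -0.41. Rbl1, a pocket protein that E2F controls, was 2.31-fold higher, and E2f5, a repressor E2F of resting cells, was 2.25-fold lower.

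Of 33 measured FoxO, serum withdrawal and p53 response genes, 3 were higher and 4 lower (median -0.16). Among all measured genes 5.79% were higher and 4.67% lower. Gas2, an actin-associated gene known for its rise in growth-arrested fibroblasts, was 1339 and 94.6, 14.1-fold lower with the PDGF-DD vehicle. It was 142 with IL-1b and 94.1 with PDGF-DD, so it was high in the IL-1b vehicle alone. Gas1, another growth arrest gene, was 93.7 with the IL-1b vehicle and under the floor with the PDGF-DD vehicle, at least 3.34-fold lower. Foxo1, a transcription factor restrained by growth factor signalling, was 339 and 101, 3.35-fold lower. The FoxO target Pdk4, a kinase that shuts off pyruvate dehydrogenase, was at least 2.59-fold lower by the probe set used, and with no floor another probe set stood for the gene and gave a log2 ratio of 0.12. Txnip and Irs2, further FoxO or energy-responsive genes, were not called (-0.16 and 0.68).

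Immediate early and growth factor feedback genes were higher in 12 of 38 measured members and lower in 4, with a median of 0.56. The shares over all genes were 5.79% higher and 4.67% lower. The IL-1b vehicle was at the floor for 7 members, which could then only be higher, and 6 of these were called. Of the 31 members above the floor in both cultures, 6 were higher and 4 lower. The 4 lower genes became 2 with the values as deposited or with loess centring, as Egr1 and Hbegf lay beside the line. Klf4, a factor that represses contractile genes, was under the floor with the IL-1b vehicle and 444 with the PDGF-DD vehicle, at least 15.8-fold higher. Rgs2, which dampens signalling through Gq-coupled receptors, was 139.9 and 1573, 11.2-fold higher. Both genes were higher still in the treated cultures, at 892 and 3335 with IL-1b and 1283 and 3251 with PDGF-DD. Some genes that respond to ERK were higher, with Dusp6, an ERK phosphatase, 2.38-fold, Fosl1, an AP-1 subunit, at least 2.70-fold, and Spry4, a feedback inhibitor, at least 4.57-fold, while Fos and Spry2 were not called (-0.14 and 0.93). The chromatin protein Hmga1 was 48.7 and 312, 6.40-fold higher. Other feedback genes went the opposite way. Errfi1, an inhibitor of the EGF receptor, was 1055 and 288, 3.66-fold lower. Spry1 was 3.14-fold lower and Egr1 2.03-fold lower. Of 22 measured YAP and TEAD target genes, 0 were called in either direction, and Ccn2, one of the best known, was 10510.1 and 11385.

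Sterol and fatty acid synthesis genes, which SREBP factors control and dividing cells use to build membrane, were higher in 15 of 35 measured members and lower in 0, with a median of 0.85. The shares over all genes were 5.79% higher and 4.67% lower. The higher members included enzymes from several steps of sterol synthesis. Idi1, which makes the isoprene unit, was 709 and 2312, 3.26-fold apart. Fdps and Fdft1, which join these units into squalene, were 2.62-fold and 2.29-fold higher. From squalene on, Sqle was 3.34-fold higher, Lss 4.16-fold, Cyp51 3.07-fold, Msmo1 3.31-fold and Dhcr7 2.13-fold. Insig1, a sterol sensor and SREBP target, was 262 and 694, 2.65-fold higher. In the treated cultures Insig1 was 376 with IL-1b and 1662 with PDGF-DD, so both cultures of the PDGF-DD pair lay above both of the IL-1b pair. The fatty acid branch was flatter, with Fasn (fatty acid synthase) at 1.48-fold, Acaca at 1.52-fold and the transcription factors Srebf1 and Srebf2 at 0.58 and 0.08 on the log2 scale. Scd, a stearoyl desaturase, was the exception, under the floor with the IL-1b vehicle and 256 with the PDGF-DD vehicle, at least 9.13-fold higher. Of 28 sterol and fatty acid promoters, 20 held a CCAAT box (71.4%, against 38.5% of measured genes), and 0 held an E2F match.

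Inflammatory genes were the other large block. Over the lists of complement, chemokine, cytokine, NF-kappaB, antigen presentation, interferon and prostanoid genes, 63 of 178 measured genes (35.4%) were at least 2-fold higher with the PDGF-DD vehicle and 8 were lower. Among all measured genes 5.79% were higher and 4.67% lower. Complement and acute phase genes were higher in 11 of 16 measured members and lower in 0 (median 1.43), chemokines and their receptors in 10 of 18 and 0 (median 1.17), and NF-kappaB feedback and target genes in 18 of 36 and 1 (median 1.05). These lists also hold many genes under the floor in both cultures, 14 of 30 complement genes and 21 of 39 chemokine genes with a probe set, and those have no ratio. The IL-1b vehicle was at the floor for 7 of the 18 measured chemokine genes, which could then only be higher, and 5 of these 7 were called. Of the 10 chemokine genes above the floor in both cultures, 5 were higher and 0 lower. By the same limit, 9 of 12 complement genes were higher and 0 lower, and 14 of 32 NF-kappaB genes were higher and 1 lower. For cytokine genes it was 6 of 26 higher and 3 lower, and for antigen presentation genes 10 of 24 higher and 1 lower. Of 25 interferon genes 2 were higher and 0 lower, and of 14 prostanoid genes 2 and 1. The pooled count of 63 also takes in genes at the floor with the IL-1b vehicle, which could only be higher. With the floor at the 50th percentile, 6 chemokine genes were at least 2-fold higher in place of 10. With no floor the chemokine median was 0.39 and 2 members were lower.

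The promoters of Cxcl1, a neutrophil chemokine, and Nfkbiz, a nuclear IkappaB protein, are shown as examples of NF-kappaB target promoters, and capitals mark kappaB matches (GGG, any 2 bases, then TTTCC, on either strand). Both were drawn only from genes that hold such a match. They lie at chr14:17479322-17479571 (minus strand) and chr11:58251471-58251720 (plus strand) on GRCr8, from RefSeq.
Cxcl1: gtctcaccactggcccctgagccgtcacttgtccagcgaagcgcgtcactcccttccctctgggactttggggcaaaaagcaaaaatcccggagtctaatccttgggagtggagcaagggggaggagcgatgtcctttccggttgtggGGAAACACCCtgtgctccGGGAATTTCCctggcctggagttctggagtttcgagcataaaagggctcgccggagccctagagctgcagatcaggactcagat
Nfkbiz: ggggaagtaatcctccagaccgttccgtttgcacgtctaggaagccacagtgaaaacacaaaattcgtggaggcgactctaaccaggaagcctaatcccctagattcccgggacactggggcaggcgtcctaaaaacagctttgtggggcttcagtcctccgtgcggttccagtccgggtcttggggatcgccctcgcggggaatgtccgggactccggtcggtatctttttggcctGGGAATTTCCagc

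Cxcl1 had kappaB matches 102 and 84 bases before the start, and Nfkbiz had 1 at 13 bases. Such a match stood in 3 of 14 chemokine promoters (21.4%) and 5 of 29 NF-kappaB list promoters (17.2%), against 1.73% of measured genes and 1.51% of all promoters. Most members of both lists had no match to these letters in this window. In the NF-kappaB list the median log2 ratio was 0.50 for the 5 genes with a match and 1.05 for the 24 without. In the chemokine list it was 3.30 for the 3 with a match and 0.19 for the 11 without.

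Cxcl1 was 590.2 with the IL-1b vehicle and 7358 with the PDGF-DD vehicle, 12.5-fold apart. The monocyte chemokine Ccl7 was 701 and 7368, 10.5-fold apart. For Ccl2, its close relative, the IL-1b culture read 12106 and the PDGF-DD vehicle culture 9303. For all 3 of these chemokines the PDGF-DD vehicle lay nearer to the IL-1b culture than to the other vehicle. Others did not reach so far. Ccl20, which draws T helper cells and dendritic cells, was under the floor with the IL-1b vehicle, 277 with the PDGF-DD vehicle and 1487 with IL-1b. The membrane-bound chemokines Cxcl16 and Cx3cl1 were 4.02-fold and 2.37-fold higher. Cxcl6, a neutrophil chemokine, separated the states, with 42.9 in the PDGF-DD vehicle against 3901 with IL-1b. The homeostatic chemokines Cxcl12 and Cxcl13 were not called, at log2 ratios of 0.17 and -0.12.

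Among acute phase genes, Lcn2, a siderophore-binding protein, was 1128 and 9706 in the vehicles, 8.61-fold apart, and 10052 with IL-1b. Orm1 (orosomucoid) was 618 in the PDGF-DD vehicle, against 8189 with IL-1b and 34.0 with PDGF-DD. Lbp, which carries lipopolysaccharide, was 338 and 1055, 3.12-fold apart, against 6215 with IL-1b. Lcn2 was thus close to its level with IL-1b, and Orm1 and Lbp were well under theirs. Haptoglobin, Hp, was 5.88-fold higher and ceruloplasmin, Cp, at least 4.82-fold. Of the complement genes, C1s and C1r, proteases of the first component, had 2.48-fold and 1.81-fold, and the inhibitor Serping1 at least 2.85-fold. Cd55, which protects cells from complement, went from 28.5, just above the floor, to 638, 22.4-fold. A second probe set gave a log2 ratio of 4.46 against 4.48. The highest Cd55 value was that with PDGF-DD, 767, so this gene did not follow the other members of its list.

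In the NF-kappaB list, Tlr2, a receptor for bacterial lipoproteins, was 50.2 and 876, 17.4-fold apart, beside 1029 with IL-1b and 604 with PDGF-DD. Sod2, the mitochondrial superoxide dismutase, was 1236 and 7543, 6.11-fold apart, beside 8139 with IL-1b. Cebpd, a transcription factor of the acute phase, was 453 and 3117, 6.89-fold apart, beside 3170.5 with IL-1b. For all 3 genes the PDGF-DD vehicle lay nearer to the IL-1b culture than to the other vehicle. Nfkbia did not reach so far, at 264 and 620 in the vehicles and 1734 with IL-1b. Over 41 members of the list, the median log2 ratio of IL-1b over the PDGF-DD vehicle was 0.61. The adhesion molecules Vcam1 and Icam1 were 4.01-fold and 2.26-fold higher. The feedback inhibitors Nfkbia and Nfkbiz were 2.35-fold and 2.50-fold higher, while the NF-kappaB subunit genes Nfkb1, Nfkb2 and Relb were not called, at 0.50, 0.49 and 0.14. Tnfaip3, the deubiquitinase A20 that ends NF-kappaB signalling, was the 1 lower member, at 846 and 264, 3.21-fold lower. With IL-1b it read 867, close to the IL-1b vehicle.

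Cytokines and interleukin receptors went both ways, with 8 of 32 measured members higher and 4 lower (median 0.43). With no floor and a pseudocount of 1, 10 were lower and the median was 0.23. In the main setting 5.79% of all genes were higher and 4.67% lower. Il6, a cytokine of smooth muscle inflammation, was under the floor with the IL-1b vehicle and 445 with the PDGF-DD vehicle, at least 15.9-fold higher, beside 3645 with IL-1b. Il1r1, the receptor of IL-1b, was 142 and 599, 4.20-fold higher. Irak3, which blocks signalling from that receptor, was 5.44-fold higher. The genes that encode IL-1 itself, Il1a and Il1b, and Tnf were under the floor in both vehicle cultures. Il1rl1, the IL-33 receptor, had a log2 ratio of 2.64 by the probe set used and 0.13 by another. By the probe set used it was 28.6 with the IL-1b vehicle, just above the floor. Il33, the ligand of that receptor, was 740.4 and 175, 4.22-fold lower. Il15 was 4.02-fold lower. Of the IL-6 pathway, Stat3 was 2.01-fold higher and its feedback inhibitor Socs3 at least 3.77-fold.

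Lipid mediators and nitric oxide genes had 4 higher and 2 lower members of 22 measured, against 5.79% higher and 4.67% lower over all genes. Of the 14 members above the floor in both cultures, 2 were higher and 1 lower. Pla2g2a, a secreted phospholipase, was under the floor with the IL-1b vehicle and 350.4 with the PDGF-DD vehicle, at least 12.5-fold higher. Ptgs2, inducible cyclooxygenase, lay just under the line at 1.90-fold. The subunits of the nitric oxide receptor, Gucy1b1 and Gucy1a1, were 4.84-fold and at least 3.30-fold lower. Interferon-stimulated genes were nearly flat, with 2 of 31 measured higher (Isg15 at 2.61-fold and Ifitm1 at 2.11-fold), 0 lower and a median of 0.36.

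Antigen presentation genes were higher in 11 of 26 measured members and lower in 1, with a median of 0.72, and most of the higher members belong to MHC class II. The shares over all genes were 5.79% higher and 4.67% lower. The class II genes RT1-Da, RT1-Ba, RT1-Bb and RT1-Db1 were 4.69-fold, 6.51-fold, 2.93-fold and 4.38-fold higher. The class II transactivator Ciita was under the floor with the IL-1b vehicle and 86.1 with the PDGF-DD vehicle, at least 3.06-fold higher. RT1-DMa, which loads peptides onto class II, was 43.0 and 171. Class II genes thus lay above the line together with their transactivator. Class I was mixed. The shared light chain B2m was 8497 and 8259.7, Tap1 and Psmb8 were under the line at 1.85-fold and 1.92-fold, the class I genes RT1-CE5 and RT1-N3 were 3.65-fold and 2.92-fold higher, and RT1-CE16 was 2.10-fold lower. The MHC genes are near-identical copies in part, and their probe sets can share signal. Other probe sets of RT1-Ba went the opposite way, at log2 ratios of -1.45 to -0.86. Of 37 leukocyte and macrophage markers with a probe set, 32 were under the floor in both vehicle cultures, among them Ptprc, Cd68, Csf1r, Itgam and Cd3e. The summed intensity of that list was 3698 with the IL-1b vehicle and 3634 with the PDGF-DD vehicle, and 0 members were called. Cd14 and Cd48, which held most of the sum, had log2 ratios of 0.12 and -0.18.

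Most contractile genes differed by less than 2-fold between the vehicle cultures. The 2-fold line was passed downwards by 10 of 48 measured genes and upwards by 0, against 4.67% of all genes lower, and the median was -0.27. The abundant core genes differed little. Tagln and Cnn1 had log2 ratios of -0.09 and -0.03, Tpm1 (tropomyosin) -0.18, Myl9 (myosin light chain) -0.42 and Mylk (myosin light chain kinase) -0.36. Acta2 was under the line too, at -0.86, and Smtn (smoothelin) at -0.90. Larger differences lay in actin-linked and membrane members of the list. Csrp2, a LIM protein of smooth muscle, was 1929.7 and 362, 5.33-fold lower. Synpo2, an actin-bundling protein, was 1615 and 357, 4.53-fold lower, though its other probe sets gave -1.14 to -0.50. Aoc3, an amine oxidase of smooth muscle, was 4277 and 1344, 3.18-fold lower, with -0.73 by a second probe set. In each of these the IL-1b vehicle was the highest of the 4 cultures. Lmod1, an actin nucleator, was 2.07-fold lower, Kcnmb1, a potassium channel subunit, at least 3.49-fold, and Myh11 (smooth muscle myosin) had a second probe set at -1.06 beside -1.40. Of 37 contractile promoters 1 held a CArG box, the element bound by serum response factor, which is 2.70%, against 1.37% of measured genes.

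Regulators of the contractile programme had 41 measured members, of which 8 were lower and 2 higher, and a median of -0.38. The shares over all genes were 4.67% lower and 5.79% higher. The IL-1b vehicle was at the floor for the 2 higher members, which could then only be higher. Myocd, the coactivator of serum response factor, was 924 with the IL-1b vehicle and 296 with the PDGF-DD vehicle, 3.13-fold lower. With the factors it was 161 (IL-1b) and 169 (PDGF-DD), so the IL-1b vehicle culture was the high one. Srf itself was 988 and 922. Of the Notch pathway, which favours the contractile state, 3 genes were lower. The ligand Jag1 was 1597 and 767, 2.08-fold lower, the receptor Notch3 3.11-fold lower and the target Hey2 3255 and 1249.7, 2.60-fold lower, while another target, Heyl, was not called (-0.54, a bound). Hopx, a homeodomain cofactor, had a log2 ratio of -2.38, and Meox2 and Twist1 were 2.86-fold and 2.28-fold lower.

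Of 37 measured vasoactive receptors, channels and cGMP pathway genes, 8 were lower and 7 higher (median -0.32). Among all measured genes 4.67% were lower and 5.79% higher. Rgs5, a G protein regulator of arterial smooth muscle and pericytes, was 1868 and 375, 4.98-fold lower. Npr3, the natriuretic peptide clearance receptor, was 1136 and 312, 3.64-fold lower. The alpha1 adrenergic receptors Adra1b and Adra1d were at least 3.79-fold and 3.26-fold lower, and the channel subunits Abcc9, Kcnma1 and Cacna1c 4.52-fold, 3.50-fold and 2.10-fold lower. Genes of contraction and relaxation signalling were thus found on both sides. Agtr1a, the angiotensin II receptor, was under the floor with the IL-1b vehicle and 316 with the PDGF-DD vehicle, at least 11.2-fold higher, and it was 111 with IL-1b and under the floor with PDGF-DD. The nucleotide receptors P2ry2 and P2ry6 were 2.64-fold and 3.03-fold higher.

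**Figure D4:**
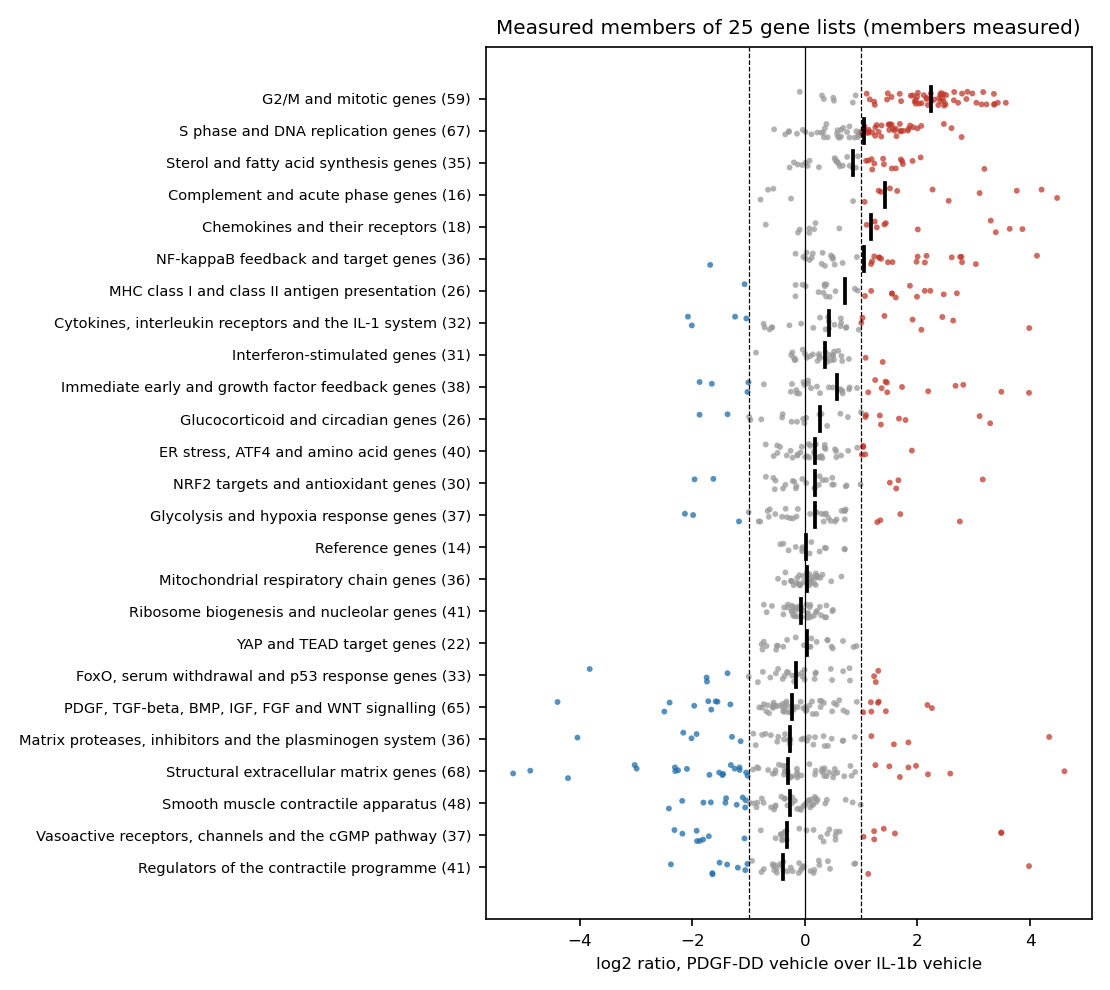
Log2 ratio of PDGF-DD vehicle over IL-1b vehicle for each measured member of the gene lists (number measured in brackets). Grey points are under 2-fold (dashed lines), red points at least 2-fold higher, blue points at least 2-fold lower, and the black bar is the list median. G2/M genes have the highest median at 2.24 of the lists drawn, the mitochondrial, ribosome biogenesis and YAP lists have no coloured point, and matrix genes spread from -5.18 to 4.61.

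Extracellular matrix genes had the widest spread. Of 68 measured structural genes, 19 were lower and 8 higher with the PDGF-DD vehicle, and the median was -0.29. The shares over all genes were 4.67% lower and 5.79% higher. The main collagens and fibronectin were among those that barely differed, with log2 ratios of -0.35 for Col1a1, -0.30 for Col1a2, -0.37 for Col3a1 and 0.19 for Fn1. Several small leucine-rich proteoglycans, which bind collagen and shape its fibrils, were lower, and were picked out after their values were seen. Ogn (osteoglycin) was 10191 and 1253, 8.13-fold lower, and another probe set gave -3.84 beside -3.02. Aspn (asporin) was 926 and 50.1, 18.5-fold lower. Omd (osteomodulin) was 1180.2 and 40.1, and both treated cultures read 46.7 or less. For Ogn, Aspn and Omd the IL-1b vehicle culture stood alone at the top of the 4. Fmod (fibromodulin) and Lum (lumican) were 2.24-fold and 2.02-fold lower and Dcn (decorin) at least 2.23-fold, whereas Prelp was not called (0.50). Among the 4 cultures Lum was highest with IL-1b, at 6041.

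Some genes of the elastic fibre were lower and others were not called. Eln, elastin, was 8140.0 and 2513, 3.24-fold lower, and another probe set gave -2.68 beside -1.70. Fbln5, which assembles elastin, was 5053 and 1831, 2.76-fold lower, and Mfap4, a microfibril protein, 2.49-fold lower. Fbn1 (fibrillin) and the crosslinking enzyme Lox were not called, at 0.39 and 0.31. Col11a1, a minor fibrillar collagen, was 3990.1 and 809, 4.93-fold lower, with -2.67 to -0.20 by its other probe sets. Crispld2, a secreted protein that is also a glucocorticoid target, had the lowest log2 ratio of all genes above the floor in both cultures, -5.18, and a second probe set gave -5.27.

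Some other matrix genes were higher. Thbs2, a matricellular thrombospondin, was 87.7 with the IL-1b vehicle and 2146 with the PDGF-DD vehicle, 24.5-fold higher, and 935 with IL-1b and 127 with PDGF-DD. The PDGF-DD vehicle culture was thus the highest of the 4 for this gene. Tnc (tenascin-C), a matrix protein of injured vessels, was 596 and 2136, 3.58-fold higher. Vcan (versican), a large proteoglycan of growing intima, was 227 and 894, 3.93-fold higher, and its other probe sets gave 1.93 to 2.32. Col8a1, a short-chain collagen of migrating smooth muscle, and the basement membrane collagens Col15a1 and Col18a1 were 3.22-fold, 5.99-fold and 2.38-fold higher. Further members of the list were not higher. Col4a1, another basement membrane collagen, was not called (-0.52), nor were Comp, Spp1 and Postn (-0.85, 0.35 and 0.31). Spon2 was 7.94-fold lower.

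Of 36 measured matrix proteases, inhibitors and plasminogen genes, 4 were higher and 6 lower (median -0.26). The shares over all genes were 5.79% higher and 4.67% lower. Serpine2, a thrombin and plasminogen activator inhibitor, went from 29.3, just above the floor, to 594, 20.3-fold. It was 376 with IL-1b and 1044 with PDGF-DD. Plat, the tissue plasminogen activator, was 3.58-fold higher and Timp1, a metalloproteinase inhibitor, 2366 and 7086, 3.00-fold higher. Mmp17, a membrane-anchored metalloproteinase, went from 465 to 28.2, which is just above the floor, 16.5-fold lower. The proteases Mmp11, Adamts15, Adamts9 and Adamts5 were 4.04-fold, 4.47-fold, 3.79-fold and 2.20-fold lower, while Mmp2 and Mmp14 were not called (-0.03 and -0.47). Mgp, the calcification inhibitor matrix Gla protein, was 2167 and 9518, 4.39-fold higher, as was Bmp6 at 4.61-fold, and Bmp4 was 2.07-fold lower.

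Growth factor genes of the PDGF, TGF-beta, BMP, IGF, FGF and WNT families were split, with 8 of 65 measured members higher and 9 lower (median -0.23). With no floor and a pseudocount of 1, 21 were lower. In the main setting 5.79% of all genes were higher and 4.67% lower. Pdgfd, the gene of the factor itself, was under the floor in both vehicle cultures. Its receptor Pdgfrb was 1503 and 1018 and not called. Pdgfra, the receptor of PDGF-AA and PDGF-CC, was 84.0 and 228, 2.71-fold higher, and the ligand Pdgfc was at least 2.93-fold lower. The ligands Tgfb1, Tgfb2 and Tgfb3 were not called (-0.36, 0.08 and -0.33). Id1 and Id3, targets of BMP signalling, were 4.78-fold and 2.27-fold higher, and Id2 was 3.28-fold lower. With the IL-1b vehicle Id1 was 28.4, just above the floor. Ptn, pleiotrophin, a heparin-binding growth factor, was 1005 and 47.8, 21.0-fold lower. It read 179.5 with IL-1b and 57.1 with PDGF-DD, so the IL-1b vehicle was again alone at the top.

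Ribosome, mitochondrial, stress and metabolic genes were read as further lists. Among all measured genes 5.79% were higher and 4.67% lower, and the counts of these lists stand beside those shares. Of 41 ribosome biogenesis and nucleolar genes 0 were at least 2-fold apart, and the median was -0.07. Of 36 measured genes of the mitochondrial respiratory chain 0 were, with a median of 0.05. Endoplasmic reticulum stress and amino acid genes had 5 of 40 higher and 0 lower (median 0.18), led by the mitochondrial folate enzyme Mthfd2 at 3.74-fold. Glycolysis and hypoxia genes had 4 higher and 3 lower of 37 (median 0.19, with a sign that changed with the settings). Among them were the lactate exporter Slc16a3, at least 6.75-fold higher, and the carbonic anhydrase Car9, 3.96-fold lower. The IL-1b vehicle was at the floor for 5 of the 37, which could then only be higher, and 3 of these were called. Of the 31 above the floor in both cultures, 1 was higher and 2 lower. NRF2 and antioxidant genes had 4 higher and 2 lower of 30. Hmox1, Gclc, Gclm and Txnrd1 were not called (-0.15, -0.22, 0.17 and 0.03). Gsta4 and Gstm2 were 3.89-fold and 3.08-fold lower. Nqo1 was 3.17-fold and the aldo-keto reductase Akr1b8 8.95-fold higher. The related enzymes Akr1c15 and Akr1c14, which are not in that list, were 22.1-fold and at least 8.60-fold lower.

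Other strongly different genes fell outside the lists or across them. Clu, clusterin, a secreted chaperone, was 210.1 and 5078, 24.2-fold higher, but its other probe set gave a log2 ratio of 1.22. Bst1, a surface enzyme that uses NAD, was 93.0 and 1248, 13.4-fold higher. On the lower side, Thbd (thrombomodulin), which turns thrombin against clotting, was 4999 and 448, 11.2-fold lower, with -4.29 to -3.91 by other probe sets. Cavin2, a coat protein of caveolae, was 2133 and 96.0, 22.2-fold lower. Lpar1, a lysophosphatidic acid receptor, was 687 and 43.3, 15.9-fold lower, and Npy1r, a neuropeptide Y receptor, and Itgb3, an integrin subunit, at least 10.9-fold and 9.12-fold lower. For Thbd, Cavin2 and Lpar1 both treated cultures were also far under the IL-1b vehicle, at 1013, 357 and 133 with IL-1b and 358, 73.5 and 31.7 with PDGF-DD.

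Markers of other cell types were read in the same way. Of 24 endothelial markers with a probe set, 19 were under the floor in both cultures, Pecam1, Kdr, Vwf and Nos3 included, and 2 were higher, Egfl7 2.18-fold and Flt1 at least 3.11-fold. Of 25 fibroblast and adventitial markers 20 were measured, 4 higher and 4 lower, with a summed intensity of 25620 and 30124. The shares over all genes were 5.79% higher and 4.67% lower. Of 22 epithelial and mesothelial markers 8 were measured and 1 was higher, Lrrn4. Of 13 pericyte markers 8 were measured and 3 were lower, Rgs5, Abcc9 and Notch3, which smooth muscle cells also express, and the summed intensity was 4750 and 2402. The share of any such cells in the differences was not tested. Of the sex-linked genes, Xist was under the floor in both cultures, and the Y-linked Eif2s3y was 2518 and 2515 and Uty 569 and 310.5, neither of them 2-fold apart.

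The treated cultures share these vehicles as controls, so their comparisons are given side by side and not correlated. Against its own vehicle, IL-1b had list medians of -0.19 for G2/M, -0.08 for S phase, 0.23 for sterol, 2.43 for complement, 2.13 for chemokine, 1.52 for NF-kappaB, -1.31 for contractile and -0.29 for matrix genes. PDGF-DD against its own vehicle had 0.93, 1.04, 0.62, -1.15, -0.59, -0.66, -1.24 and -0.64 for the same lists. Between the vehicles the medians were 2.24, 1.06, 0.85, 1.43, 1.17, 1.05, -0.27 and -0.29. The G2/M and sterol medians between the vehicles were thus larger than those of either factor against its own vehicle. The contractile median was smaller than for either factor. Over all genes, 11.6% of 10679 measured genes were at least 2-fold apart between IL-1b and its vehicle and 8.91% of 10142 between PDGF-DD and its vehicle, beside the 10.5% between the vehicles.

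Where a gene had further probe sets, they served as a check within the same pair of arrays. Another measured probe set existed for 3127 genes, and the median absolute difference of the log2 ratio between probe sets of 1 gene was 0.37. Of the 303 called genes with another measured probe set, 264 had all of them on the same side of 0. For 155 at least 1 other probe set was also 2-fold or more the same way, for 39 at least 1 lay on the other side, and for 5 one was at least 2-fold the other way. Genes named above with a clear disagreement include RT1-Ba, Il1rl1, Clu, Tk1, Col11a1, Synpo2 and Aoc3. Further cases are Gja5 (connexin 40), at 3.48 as a bound and 0.41, and Map2, a microtubule protein, at -3.20 and -0.15.

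**Figure D5:**
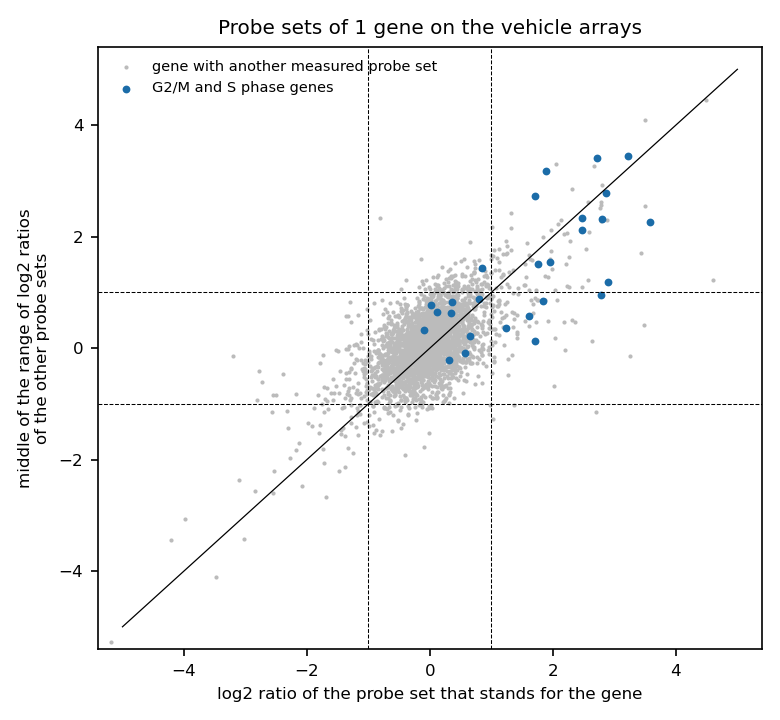
Log2 ratio of the probe set that stands for a gene (horizontal axis) against the middle of the range of its other measured probe sets (vertical axis), 1 point per gene. Blue points are G2/M and S phase genes, the solid line is equality and the dashed lines are 2-fold. Most called genes lie on the same side of 0 by both, and many lie nearer to 0 by the other probe sets.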

How the data were processed

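The deposited values were linear probe set intensities of 4 arrays, and per the submitters' processing notes the authors used MAS5. The sources used here give neither its version nor its scaling target. The 4 deposited columns had the same median intensity, 53.3. Each array was rescaled to a common mean after trimming 2% of probe sets at each end (factors 0.951 to 1.03), and a floor was set at the 40th percentile. Detection calls were not used here. In the platform annotation of 2016, 20832 probe sets carried 1 symbol, 436 carried more and 9831 had no entry; 20764 of the first kind were found in the GRCr8 RefSeq table by their gene identifier. A gene was represented by its brightest probe set, by mean log2 intensity over the 4 arrays.

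Genes were described by the fixed rule of 2-fold, with no test, since each group had 1 array. The members and the 39 gene lists were chosen with earlier results of these data known. The naming rule took the 15 highest and 15 lowest ratios of genes that were above the floor in both cultures, up to 8 in each direction by bound, and per list the role genes and the 4 largest ratios. The text gives part of these genes. Other list members (such as Ttk, Rrm1, Ciita, Hey2 and Per2) and the 6 promoters printed were chosen after their values were seen. Alternatives covered scaling, floor, pseudocount and probe set choice. The steps were tested on simulated data. Python 3.11.15, numpy 2.4.6, pandas 2.3.3, statsmodels 0.14.6 and matplotlib 3.10.9 were used.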

Additional observations from a re-analysis of the deposited data

How the results depend on the processing

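The counts of genes at least 2-fold higher and lower, 602 and 485, stayed between 484 and 717 and between 365 and 657 under the other scalings, floors and probe set rules tried. Exceptions were 1411 and 1581 with no floor and a pseudocount of 1, which adds genes near the background, and 1107 and 942 with all probe sets in place of genes. Higher genes made up 55.4% of those called, 59.9% after loess centring and 47.2% with no floor. With the floor at the 50th percentile 6 chemokine genes were higher in place of 10. The log2 ratio of Pdk4 turned from -1.37 to 0.12 with no floor, where another probe set stood for the gene; it was the 1 named gene past 2-fold to change sign. The medians of the YAP, lipid uptake and glycolysis lists and of the leukocyte, endothelial, fibroblast, epithelial and neural marker lists changed sign between settings. No paired analysis was possible because each group had 1 array. The number of arrays and the signal over background limit every value, and differences near the floor most.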

Other observations

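Some circadian clock genes, which keep daily time within each cell, were at least 2-fold apart between the vehicle cultures. Dbp, an output factor of the clock, was 157 with the IL-1b vehicle and 333 with the PDGF-DD vehicle, 2.12-fold higher, and 112 and 137 with IL-1b and PDGF-DD. The repressor genes Per2 and Per3 were 156 and 394, and 48.1 and 153, 2.52-fold and 3.19-fold higher. Bhlhe40 and Bhlhe41, further repressors of the clock, were 3.46-fold and 2.11-fold higher. Bmal1, the activator whose transcript runs in antiphase to Per and Dbp, was 85.6 and 50.1, 1.71-fold lower and under the line. Per1, Nr1d1, Cry1, Cry2 and Clock were not called, at log2 ratios of -0.14, 0.76, 0.26, 0.02 and 0.30. Of the 26 measured members of a list that mixes glucocorticoid and circadian genes 8 were higher and 2 lower. Among all measured genes 5.79% were higher and 4.67% lower. The labels used here give no hour of harvest.

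In the same list, Hsd11b1, the enzyme that makes active glucocorticoid inside the cell, was 58.1 and 569.7, 9.80-fold higher with the PDGF-DD vehicle, and 3177 with IL-1b. The receptor gene Nr3c1 was 1364 and 698, 1.95-fold lower and just under the line. The receptor's target genes Fkbp5, Tsc22d3, Sgk1 and Klf9 were not called (0.40, -0.39, -0.24 and -0.01). Among cell death genes 3 of 22 were higher and 1 lower, against 5.79% higher and 4.67% lower over all genes. Bid and Ripk3, which promote death, were 2.35-fold and 2.26-fold higher, and Bak1, a pore-forming death protein, was 4.23-fold lower.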
